A study of Mus musculus with 39 samples.

Results

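The comparison described here asked how lymph node cells sorted as dendritic cells (DC) had changed 24 h after mice received particles that carried the adjuvant CpG and no ovalbumin. It rests on 4 of the 39 libraries of the series: 2 libraries taken 24 h after CpG-only particles and 2 from non-immunized mice, chosen by their titles. Both groups were wild-type C57BL/6 mice of 8 to 12 weeks, and the cells came from popliteal and inguinal lymph nodes after negative selection for DC and sorting. Particles were injected under the skin of the hock. The study as a whole followed DC that meet antigen-specific OT-I and OT-II T cells, but the labels of these 4 libraries do not say whether the mice carried such cells, whether particle-bearing cells were gated, or whether a library came from 1 mouse or from pooled mice. The p-values below therefore measure spread between libraries, which may be technical. That spread was estimated over all 10 libraries of the time course (5 groups of 2), not from these 4 alone. Alongside stood 2 libraries taken 12 h after the same particles and 2 taken 24 h after particles with ovalbumin and CpG. A further 2, taken 12 h after particles with ovalbumin and CpG, entered the fit only.

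CpG DNA is sensed in endosomes by Tlr9, which signals through Myd88 to interferon regulatory factors and to NF-kB. The type I interferon that is made in response binds its receptor on the same and on neighbouring cells, and the complex that holds Stat2 and Irf9 then binds the interferon-stimulated response element of antiviral genes. Mature DC leave the tissue by Ccr7, present peptides on MHC molecules, and show T cells both costimulatory ligands such as Cd86 and coinhibitory ligands such as Cd274.

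The 4 libraries held between 612017 and 1329203 counts and between 12076 and 12892 genes with a count, of 24421 genes in the table. The shallowest was replicate 1 of the CpG 24 h group. Levels are given in CPM, counts relative to the library total after scaling by edgeR's trimmed mean of M-values. Both CpG 24 h replicates agreed less well with each other (Pearson's r of log2 CPM across genes 0.915) than both non-immunized replicates did (0.969).

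Defining markers of DC were sparse. Zbtb46, the transcription factor that marks conventional DC, had 3 and 5 counts in the CpG 24 h libraries, against 1 and 3 counts in the non-immunized libraries. Itgax, which encodes CD11c, stood at 30.8 and 19.2 CPM after CpG, against 42.1 and 28.7 CPM without immunization. The chemokine receptor Xcr1 of type 1 DC had 8.56 and 3.83 CPM after CpG, against 0.739 and 3.19 CPM without immunization. Siglech, a receptor of plasmacytoid DC, had 0 counts in all 4 libraries, which allows up to 5.08 and 2.28 CPM in the CpG 24 h libraries and up to 2.19 and 2.36 CPM in the non-immunized libraries, from 3 counts each. The type 2 DC lectin Cd209a had 0 and 0 counts after CpG, against 13 and 4 counts in the non-immunized libraries. T cell transcripts were present throughout. The 28 T cell markers summed to 10755 and 10402 CPM after CpG, against 12265 and 12076 CPM without immunization. They include Ccr7, which rose after CpG and is also a gene of DC maturation. The libraries are therefore called by their label, cells labelled DC, with no finer cell type. In such bulk samples a smaller number of cells of a type and less RNA per cell cannot be told apart.

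Each CpG 24 h library also stood apart from the other in markers of another cell type, as the plot of summed markers shows. The 26 B cell markers summed to 1813 and 6042 CPM in CpG 24 h replicates 1 and 2, against 1324 and 1249 CPM in the non-immunized libraries, so replicate 2 was the high library. The 11 mast cell, eosinophil and basophil markers summed to 849 and 116 CPM after CpG, against 82.7 and 102 CPM without immunization, and here replicate 1 was high. Neutrophil markers, 19 in number, gave 1193 and 181 CPM after CpG, against 530 and 744 CPM without immunization, so the CpG libraries lay on both sides of the non-immunized ones. Results below that depend on 1 library are given with and without it. Where a count of called genes is given with each library left out in turn, the order is CpG 24 h replicate 1, CpG 24 h replicate 2, non-immunized replicate 1 and non-immunized replicate 2. It is given where 1 library moved a count of 2 or more by more than 1.5 times. Each such fit leaves 1 library in a group, which is assumed to vary like the other groups. The CpG 24 h replicates varied more, with a chi-square per degree of freedom of 6, against 2.24 to 2.94 in the other groups. Fits without a CpG 24 h library leave that pair out of the estimate of the spread, while fits without a non-immunized library keep it.

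**Figure D1:**
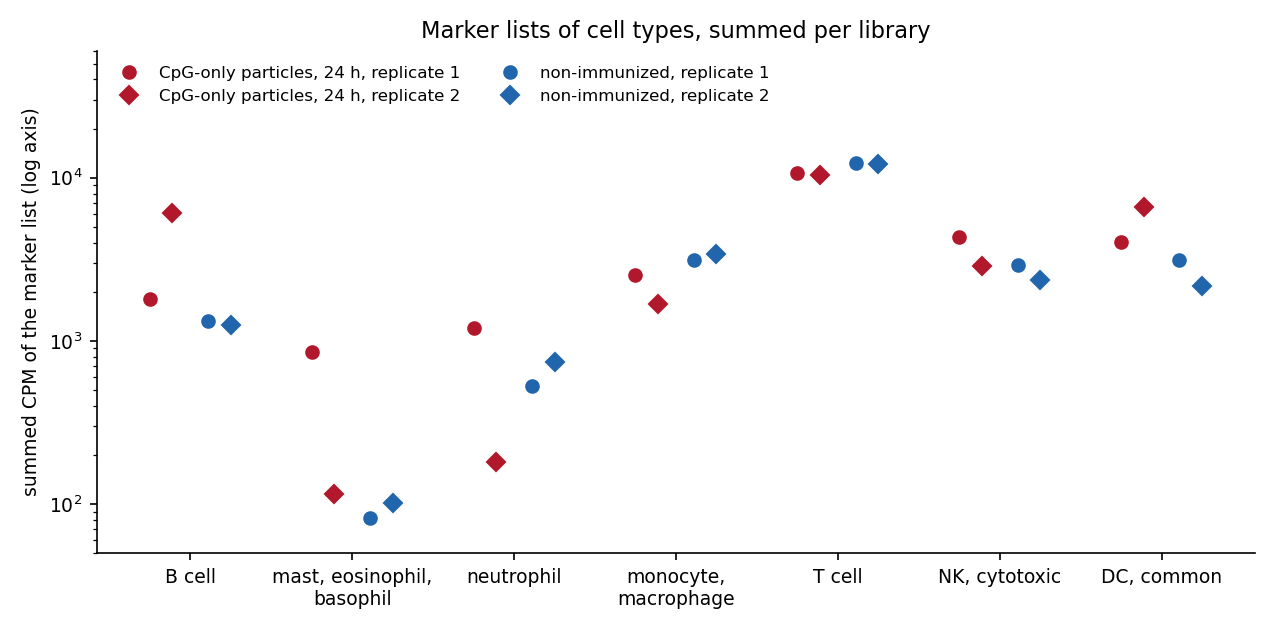
Summed level of 7 cell type marker lists in each library, in CPM on a log axis, with CpG-only particles at 24 h in red left of non-immunized in blue, and circles and diamonds for replicates 1 and 2. The B cell sum was highest in CpG 24 h replicate 2 (6042 CPM) and the mast cell, eosinophil and basophil sum in replicate 1 (849 CPM), while T cell sums lay between 10402 and 12265 CPM.

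A day after CpG-only particles, 39 of 45 antiviral effectors that answer interferon, 30 of 37 genes of DC maturation and 16 of 24 genes of the MHC class I pathway were called higher, and 7 of 19 markers of monocytes and macrophages were called lower. Of 9428 genes tested with edgeR's quasi-likelihood test, 750 (7.96%) were called higher and 288 (3.05%) lower at a Benjamini-Hochberg adjusted p under 0.05. These 2 shares are the background for the counts of list members below. With each library left out in turn, 722, 730, 441 and 365 genes were called higher and 404, 191, 97 and 81 lower, so without either non-immunized library both numbers fell by more than 1.5 times, and without CpG 24 h replicate 2 the number lower did. Those fits differ in the spread they estimate, as described above, so the falls do not show which group the calls rest on. With plain library totals in place of the trimmed mean scaling, the median log2 fold change over all genes moved to -0.198, against 0.0025 as reported. The calls then split into 577 higher and 574 lower. The authors' deposited table held 583 genes higher and 126 lower at the same threshold, and 701 of these, 98.9% of that table's calls and 67.5% of the calls made here, were called in the same direction here.

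**Figure D2:**
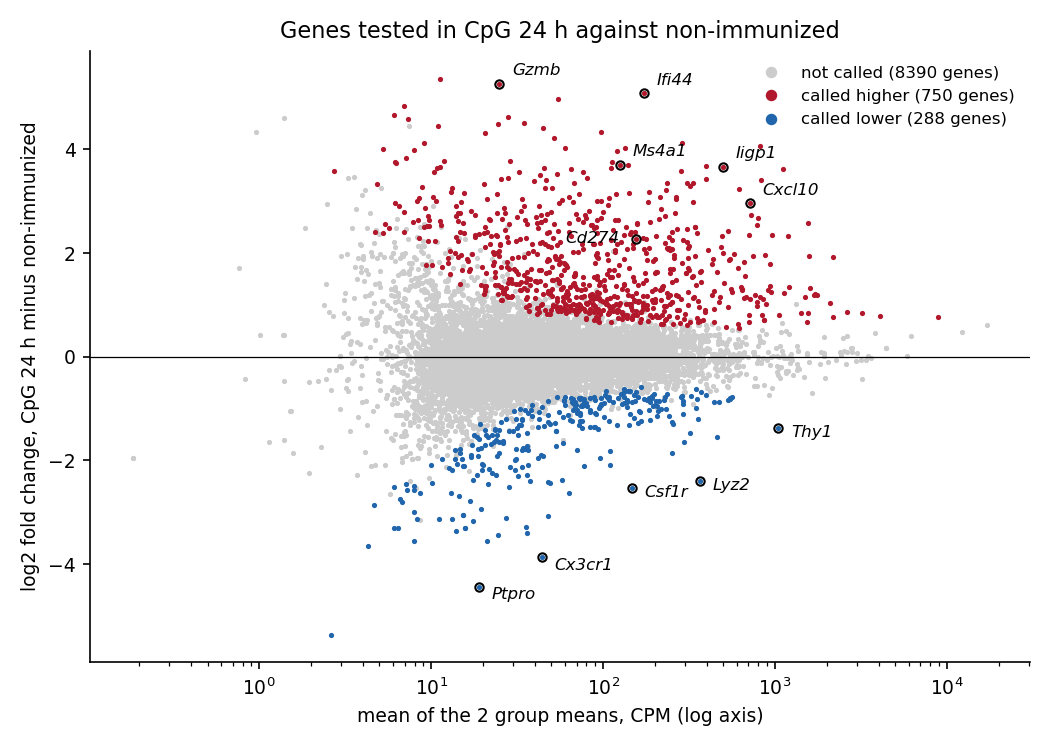
Log2 fold change of CpG 24 h over non-immunized for each gene tested, against the mean of both groups' CPM on a log axis, with genes called higher in red (750) and lower in blue (288). Ifi44 lay at 5.09 and Iigp1 at 3.67, while Lyz2 lay at -2.40 and Ptpro at -4.44.

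Genes that answer interferon are given first. Of 45 antiviral effectors tested, 39 rose, against 7.96% of all genes tested, and 2 fell, with a median log2 fold change of 2.46 against 0.0025 over all genes tested. Ifi44, an interferon-induced gene of antiviral response, had 426 and 247 CPM after CpG, against 8.86 and 10.4 CPM without immunization, a log2 fold change of 5.09 ± 0.34 (SE, adjusted p = 3e-07). The libraries of the groups did not overlap, and the lower CpG library was still far above both others. Oas2, which makes the second messenger that activates RNase L, had 390 and 695 CPM after CpG, against 31.0 and 31.9 CPM without immunization (log2 fold change 4.12 ± 0.28, adjusted p = 3e-07). Rsad2, which encodes the antiviral enzyme viperin, had 1777 and 1300 CPM after CpG, against 119 and 63.0 CPM without immunization (log2 fold change 4.07 ± 0.28, adjusted p = 3.1e-07). Both genes were high in both CpG libraries, with a different library leading in each.

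Isg15, a ubiquitin-like modifier, stood at 2176 and 1923 CPM after CpG, against 217 and 115 CPM without immunization. Usp18, which removes Isg15 from proteins and dampens receptor signalling, stood at 539 and 619 CPM after CpG, against 84.2 and 33.5 CPM. Ifit1, which binds foreign RNA, stood at 1727 and 1307 CPM after CpG, against 191 and 94.1 CPM, and Mx1, a dynamin-like antiviral GTPase, at 443 and 512 CPM after CpG, against 66.5 and 46.3 CPM. All 4 rose, and in each the second non-immunized library was the lower of its group. The effectors that fell were Ifi27, with 111 and 87.4 CPM after CpG against 243 and 219 CPM without immunization (log2 fold change -1.24 ± 0.22, adjusted p = 0.0013), and Ifitm6, with 20.5 and 6.90 CPM after CpG against 67.2 and 55.0 CPM (-2.39 ± 0.47, adjusted p = 0.0027). Ifitm2, Ifitm3, Ly6c2 and Ly6e did not pass the test, with log2 fold changes of -0.30, 0.40, -0.18 and 0.46.

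The promoters of 5 genes of this response are shown because interferon genes carry a known DNA element, and because the promoter of Cd274 holds no match in the same window. Capitals mark matches, on either strand, to the core of the interferon-stimulated response element, written GAAA, any 2 bases, GAAA. Sequences are RefSeq's, on build GRCm38.p6, read 5′ to 3′ on the gene's strand, from 250 bases before to 50 bases after the gene start, and the deposited counts themselves were made on another build.
Isg15 (chr4:156200769-156201068, minus strand): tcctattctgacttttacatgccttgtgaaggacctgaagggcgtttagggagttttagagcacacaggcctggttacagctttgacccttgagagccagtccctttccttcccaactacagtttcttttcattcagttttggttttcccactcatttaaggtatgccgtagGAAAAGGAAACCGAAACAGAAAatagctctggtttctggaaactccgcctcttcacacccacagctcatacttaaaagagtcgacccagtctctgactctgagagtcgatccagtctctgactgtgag
Ifit1 (chr19:34640639-34640938, plus strand): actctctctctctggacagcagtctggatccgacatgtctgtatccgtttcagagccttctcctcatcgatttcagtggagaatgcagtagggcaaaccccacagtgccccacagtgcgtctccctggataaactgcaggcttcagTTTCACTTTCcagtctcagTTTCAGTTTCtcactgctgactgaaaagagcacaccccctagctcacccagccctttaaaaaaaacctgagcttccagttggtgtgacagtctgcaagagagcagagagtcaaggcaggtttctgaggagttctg
Gbp2 (chr3:142620413-142620712, plus strand): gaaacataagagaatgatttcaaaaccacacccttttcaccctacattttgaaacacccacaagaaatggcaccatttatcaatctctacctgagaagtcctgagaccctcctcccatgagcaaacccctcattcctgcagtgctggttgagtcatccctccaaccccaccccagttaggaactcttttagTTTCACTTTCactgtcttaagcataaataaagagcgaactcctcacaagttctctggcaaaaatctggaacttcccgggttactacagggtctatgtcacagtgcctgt
Cxcl10 (chr5:92348840-92349139, minus strand): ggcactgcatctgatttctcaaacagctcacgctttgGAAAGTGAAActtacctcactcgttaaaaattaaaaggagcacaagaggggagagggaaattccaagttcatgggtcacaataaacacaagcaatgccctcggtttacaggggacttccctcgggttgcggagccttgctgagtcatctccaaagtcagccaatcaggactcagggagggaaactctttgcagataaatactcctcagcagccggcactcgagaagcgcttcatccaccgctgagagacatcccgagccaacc
Cd274 (chr19:29367188-29367487, plus strand): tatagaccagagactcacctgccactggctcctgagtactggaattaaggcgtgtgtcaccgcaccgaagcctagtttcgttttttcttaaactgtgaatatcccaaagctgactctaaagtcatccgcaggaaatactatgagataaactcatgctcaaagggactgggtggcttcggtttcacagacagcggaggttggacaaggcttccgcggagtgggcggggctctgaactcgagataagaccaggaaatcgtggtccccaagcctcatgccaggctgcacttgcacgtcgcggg
In Isg15 there were 3 overlapping matches, in Ifit1 there were 2, and in Gbp2 and Cxcl10 there was 1 each. The first match began 78 bases before the gene start in Isg15, 104 in Ifit1, 59 in Gbp2 and 213 in Cxcl10.

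Of the 9428 genes tested, 7299 matched a gene of the promoter table by symbol, and some genes have several promoters. The core was held by 17 of 41 promoters of the antiviral effectors (41.5%) and by 9 of 11 promoters of the GTPases described next (81.8%). Those promoters came from 35 effectors and from 10 of the 18 GTPases, the rest having no matched promoter. Among promoters of genes called higher it was held by 84 of 740 (11.4%), among those of genes called lower by 5 of 281 (1.78%), and among those of all genes tested by 318 of 9292 (3.42%). Over the whole table the share was 3.44%. The form of NF-kB sites written GGGA, any 2 bases, TTCC was held by 3.38% of promoters of genes called higher, 1.42% of those of genes called lower and 1.66% of those of all genes tested. The form TTCNNNGAA of STAT sites was held by 9.05%, 10.3% and 7% in the same order, and the E-box CACGTG by 7.7%, 7.83% and 10.2%. All were searched on both strands, matches of different forms may overlap, and a match is a description of letters in this window.

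Interferon-inducible GTPases, which attack the vacuoles of intracellular pathogens, rose as a whole list: all 18 members tested were called higher, with a median log2 fold change of 2.22. Iigp1, an immunity-related GTPase, had 1042 and 795 CPM after CpG, against 70.9 and 73.4 CPM without immunization (log2 fold change 3.67 ± 0.22, adjusted p = 1.7e-07). Gbp2, a guanylate-binding protein, had 1200 and 1028 CPM after CpG, against 124 and 113 CPM (3.23 ± 0.22, adjusted p = 3e-07). Gbp11 had 118 and 78.2 CPM after CpG, against 6.65 and 3.19 CPM (4.23 ± 0.37, adjusted p = 1.6e-06). Groups were far apart in each, and replicates within a group differed by less than the groups did. The smallest change of the list was that of Gbp8, at 582 and 615 CPM after CpG against 275 and 251 CPM (1.19 ± 0.18, adjusted p = 0.00026). Several GTPases have near-identical copies, among them Gbp6 with Gbp10 and Tgtp1 with Tgtp2, so the split of counts within such pairs is uncertain. Leaving out non-immunized replicate 1 ended the call of Gbp10 (adjusted p = 0.1).

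**Figure D3:**
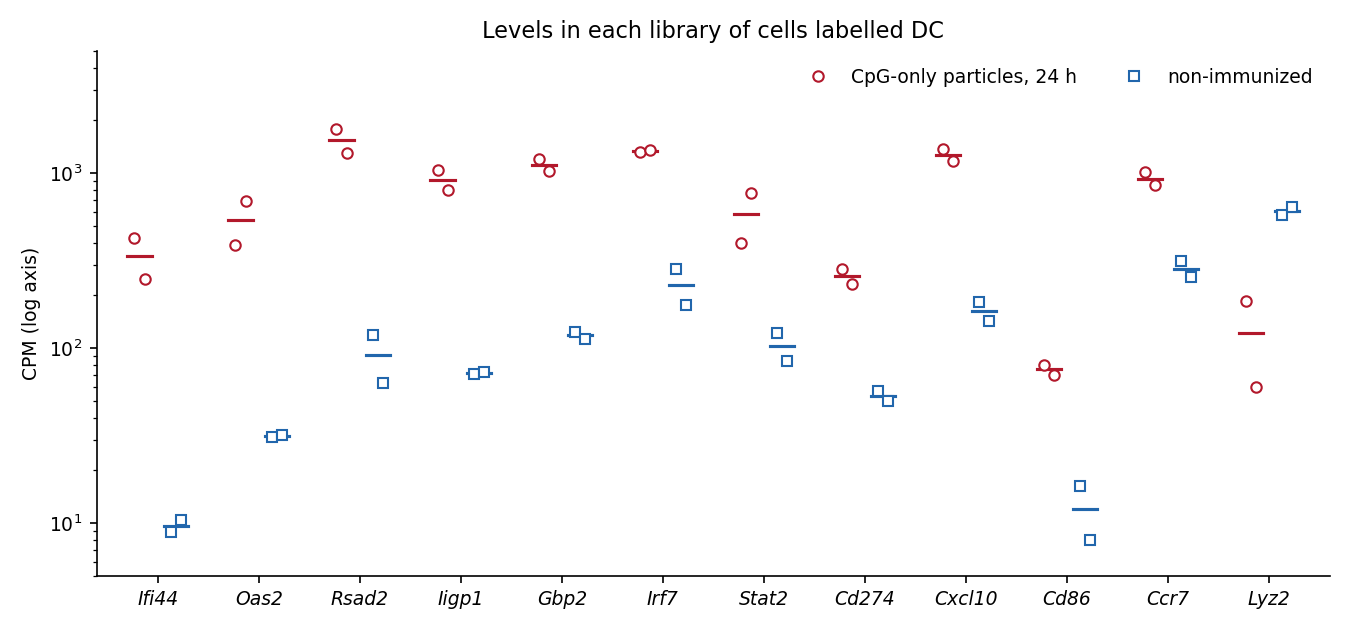
CPM on a log axis of 12 genes in each library, with CpG-only particles at 24 h as red circles left of non-immunized as blue squares; bars are group means of 2 libraries. For 11 of the 12 genes both CpG libraries lie above both non-immunized libraries, and for Lyz2 both lie below (185 and 59.8 CPM after CpG, against 576 and 641 CPM). The 12 genes were picked for display, and libraries of the groups do not overlap for 51% of all genes tested.

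The factors that carry the interferon signal rose in part. Of 15 IRF and STAT factors tested, 9 rose and 6 did not pass the test. Irf7, the factor that amplifies interferon production, had 1315 and 1351 CPM after CpG, against 282 and 176 CPM without immunization (log2 fold change 2.54 ± 0.23, adjusted p = 1.7e-06). Stat2 had 399 and 767 CPM after CpG, against 122 and 84.6 CPM (2.51 ± 0.27, adjusted p = 9.5e-06). Irf9, the DNA-binding partner of Stat2, moved less, at 288 and 386 CPM after CpG against 204 and 197 CPM (0.76 ± 0.22, adjusted p = 0.03). Irf9 was not called without CpG 24 h replicate 2 (log2 fold change 0.52, adjusted p = 0.21). Irf8, which DC and B cells both use, had 233 and 599 CPM after CpG against 94.5 and 83.0 CPM, and was high in the library with the high B cell sum. Its log2 fold change was 2.25 ± 0.34 (adjusted p = 0.00032) and 1.39 without that library (adjusted p = 0.0012). The call of Irf9 (adjusted p = 0.16) was lost without non-immunized replicate 1. Irf9 (0.2) was not called without non-immunized replicate 2.

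Transcripts of interferon and its receptors gave a different picture. Of 5 receptor genes tested, 0 were called in either direction by edgeR and 1 was lower at an unadjusted p under 0.05, with log2 fold changes between -0.51 and 0.07; the receptor chain Ifnar1 stood at 94.2 and 96.6 CPM after CpG against 118 and 136 CPM without immunization. DESeq2, run without the filter on low counts, tested 7 members of this list and called 1 higher. Without CpG 24 h replicate 1, edgeR tested 6 members and called 1 higher. The interferon genes Ifnb1, Ifna4, Ifnl2 and Ifnl3 had 0 counts in all 4 libraries. Ifng, the interferon gamma gene, a product of T and natural killer cells, had 2 and 56 counts after CpG, against 0 and 0 counts without immunization, and was left out by the filter on low counts. Nearly all of those counts came from CpG 24 h replicate 2. The receptor gene Ifnlr1 had 0 and 1 counts after CpG, against 3 and 3 counts, and the 5 receptor genes tested reached at most 0.07. The 1 member called higher by DESeq2, and without CpG 24 h replicate 1, was therefore Ifng and not a receptor gene.

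Sensors of nucleic acids rose in 9 of 22 cases, and the other 13 did not pass the test. Tlr9 itself, the receptor of CpG, was close to undetected, with 0 and 3 counts after CpG against 2 and 1 counts without immunization, and was not tested. The RNA sensor Ifih1 had 248 and 193 CPM after CpG, against 41.4 and 44.7 CPM without immunization (log2 fold change 2.34 ± 0.22, adjusted p = 2.7e-06), and its relative Dhx58 had 171 and 215 CPM after CpG, against 44.3 and 26.3 CPM (2.45 ± 0.24, adjusted p = 4.6e-06). Tlr3 and Tlr7, endosomal RNA receptors, also rose, by log2 fold changes of 2.52 ± 0.63 and 1.73 ± 0.29. Of 8 other genes of Toll-like receptors and their partners 1 was called higher, the partner protein Ly86, with 192 and 415 CPM after CpG against 145 and 108 CPM (1.29 ± 0.30, adjusted p = 0.0093). Its value was 0.59 (adjusted p = 0.21) without CpG 24 h replicate 2. Not called without non-immunized replicate 2 were Tlr3 (adjusted p = 0.15) and Ly86 (0.15).

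PARP and TRIM proteins, which mark or restrict viral components, rose in 16 of 20 cases, with a median log2 fold change of 1.37. Parp14 had 834 and 959 CPM after CpG, against 180 and 152 CPM without immunization (log2 fold change 2.43 ± 0.19, adjusted p = 6.4e-07). Dtx3l, the ubiquitin ligase that works with Parp9, had 902 and 738 CPM after CpG, against 163 and 164 CPM (2.32 ± 0.26, adjusted p = 1.3e-05). The nuclear body protein Pml had 428 and 731 CPM after CpG, against 110 and 95.7 CPM (2.50 ± 0.24, adjusted p = 2.9e-06). In all of these both CpG libraries were far above both non-immunized libraries.

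Feedback inhibitors rose in 7 of 24 cases, and 17 did not pass. With each library left out in turn, 7, 7, 3 and 4 were called higher. Socs1, which blocks Jak kinases, had 267 and 338 CPM after CpG, against 108 and 90.9 CPM without immunization (log2 fold change 1.61 ± 0.20, adjusted p = 4e-05). Socs2 had 371 and 270 CPM after CpG, against 58.3 and 46.3 CPM (2.60 ± 0.25, adjusted p = 2.9e-06). Tnfaip3 and Nfkbia, which restrain NF-kB, rose by 1.13 ± 0.25 and 1.01 ± 0.24 on the log2 scale. Of 20 NF-kB subunits and targets, 12 rose and 8 did not pass. The counts were 10, 9, 5 and 4 higher with each library left out in turn. Among the subunits, Relb had 288 and 237 CPM after CpG against 111 and 74.2 CPM (1.49 ± 0.22, adjusted p = 0.00024), and Rel rose by 1.59 ± 0.44. Nfkb2 rose by 1.12 ± 0.27 and lost its call without CpG 24 h replicate 1 (0.67, adjusted p = 0.089). Nfkb1 and Rela were not called, with log2 fold changes of 0.10 ± 0.19 and -0.12 ± 0.20. Without non-immunized replicate 1, Tnfaip3 (adjusted p = 0.1), Nfkbia (0.092), Rel (0.26) and Nfkb2 (0.074) were not called. Leaving out non-immunized replicate 2 ended the calls of Nfkbia (0.11), Rel (0.057) and Nfkb2 (0.13).

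**Figure D4:**
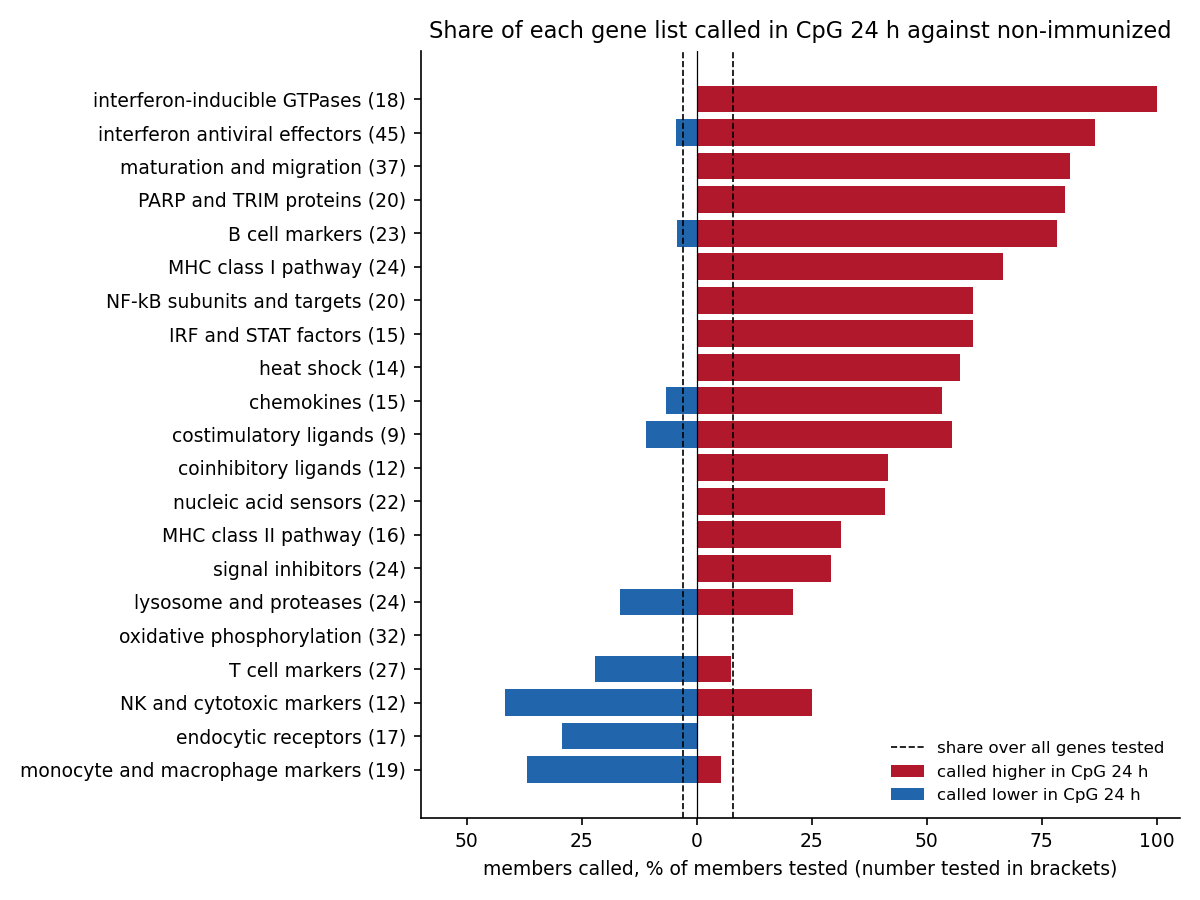
Share of tested members of 21 gene lists called higher (red, to the right) or lower (blue, to the left) in CpG 24 h against non-immunized, in percent, with dashed lines at the shares over all genes tested (7.96% higher and 3.05% lower). Interferon-inducible GTPases stood highest, with 18 of 18 called higher, and oxidative phosphorylation had 0 of 32 called.

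Genes of antigen presentation by MHC class I and by class II were considered separately. In the class I list 16 of 24 members rose, with a median log2 fold change of 1.06. Leaving out each library in turn gave 17, 14, 15 and 9 called higher. Psmb9, an immunoproteasome subunit, had 950 and 1051 CPM after CpG, against 357 and 321 CPM without immunization (log2 fold change 1.56 ± 0.19, adjusted p = 2.8e-05). Nlrc5, the transactivator of class I genes, had 479 and 516 CPM after CpG, against 185 and 198 CPM (1.38 ± 0.18, adjusted p = 7.5e-05). Tap1, which carries peptides into the endoplasmic reticulum, had 774 and 1045 CPM after CpG, against 399 and 433 CPM (1.13 ± 0.19, adjusted p = 0.00066). The heavy chain gene H2-K1 and the light chain gene B2m rose by 0.83 ± 0.18 and 0.77 ± 0.18 on the log2 scale. Heavy chain genes are near-identical to each other, so counts may be shared among them. The calls of H2-K1 (adjusted p = 0.12) and B2m (0.16) were lost without non-immunized replicate 2.

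In the class II list 5 of 16 members rose. In turn, the fits without 1 library called 13, 1, 4 and 0 higher. H2-Aa had 1462 and 3080 CPM after CpG, against 1176 and 636 CPM without immunization (log2 fold change 1.33 ± 0.35, adjusted p = 0.019). The invariant chain Cd74 had 1832 and 2924 CPM after CpG, against 1309 and 754 CPM (1.21 ± 0.32, adjusted p = 0.02). In both genes the CpG library with the high B cell sum, replicate 2, was the higher one. B cells also express these genes, and their part in the result was not tested. H2-Aa without replicate 2 had a log2 fold change of 0.69 (adjusted p = 0.17). H2-Ab1 overlapped between the groups, at 1042 and 2481 CPM after CpG against 1092 and 666 CPM, and was not called (adjusted p = 0.091). Ciita, the transactivator of class II genes, was not called either (1.08 ± 0.47, adjusted p = 0.17). H2-Aa (adjusted p = 0.26) and Cd74 (0.27) were not called without non-immunized replicate 2. Not called without CpG 24 h replicate 2 was Cd74 (0.085).

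Coinhibitory ligands and receptors rose in 5 of 12 cases. Without each library in turn the number higher was 4, 3, 3 and 2. Cd274, which encodes PD-L1, the ligand of PD-1, had 284 and 233 CPM after CpG, against 56.9 and 49.5 CPM without immunization (log2 fold change 2.27 ± 0.22, adjusted p = 3.2e-06), and groups were far apart. It remained called without any of the 4 libraries, at log2 fold changes between 2.11 and 2.41. Pdcd1lg2, the second ligand of PD-1, had 20.5 and 18.4 CPM after CpG, against 3.69 and 7.18 CPM (1.81 ± 0.52, adjusted p = 0.029). Cd200, a ligand of an inhibitory receptor on myeloid cells, had 49.6 and 44.4 CPM after CpG, against 6.65 and 1.60 CPM (3.43 ± 0.47, adjusted p = 0.00011). Lgals9, which encodes galectin-9, rose by 1.13 ± 0.21. Btla, an inhibitory receptor of B cells and DC, had 68.5 and 225 CPM after CpG, against 59.1 and 51.0 CPM, and its log2 fold change of 1.48 ± 0.38 (adjusted p = 0.016) was 0.31 (adjusted p = 0.66) without the library with the high B cell sum. The enzyme Ido1 had 3 and 1 counts after CpG, against 0 and 0 counts, and was not tested. Without CpG 24 h replicate 1, Pdcd1lg2 (adjusted p = 0.056) was not called. Leaving out CpG 24 h replicate 2 ended the call of Pdcd1lg2 (0.086). The calls of Pdcd1lg2 (0.25) and Btla (0.1) were lost without non-immunized replicate 1. Pdcd1lg2 (0.072), Lgals9 (0.059) and Btla (0.16) were not called without non-immunized replicate 2.

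Costimulatory molecules rose in 5 of 9 cases, and 1 member fell. Called higher were 5, 4, 5 and 3 with each library left out in turn. Cd86, a ligand of CD28, had 80.5 and 70.5 CPM after CpG, against 16.2 and 7.98 CPM without immunization (log2 fold change 2.60 ± 0.39, adjusted p = 0.00025). Its partner Cd80 was sparse and overlapped between the groups, at 3.42 and 6.13 CPM after CpG against 5.91 and 0 CPM, and was not called (0.74 ± 1.05, adjusted p = 0.75). The receptor Cd40, by which T cells activate DC, had 142 and 192 CPM after CpG, against 54.6 and 30.3 CPM (1.98 ± 0.29, adjusted p = 0.00023). Slamf1 and the ligand Icosl also rose, by 1.95 ± 0.39 and 1.58 ± 0.39; Icosl lost its call without replicate 2 (1.06, adjusted p = 0.14). Tnfsf14, which encodes LIGHT, fell, with 44.5 and 39.8 CPM after CpG against 75.3 and 76.6 CPM (-0.86 ± 0.25, adjusted p = 0.032), and lost its call without CpG 24 h replicate 2 (-0.77, adjusted p = 0.18). Tnfsf14 was also not called without non-immunized replicate 1 (-0.88, adjusted p = 0.14). Not called without non-immunized replicate 2 were Slamf1 (adjusted p = 0.053), Icosl (0.2) and Tnfsf14 (0.17).

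Of 37 genes tested that mark DC maturation and migration 30 rose, and the median log2 fold change was 2.01. Fscn1, which bundles actin in the processes of mature DC, had 799 and 420 CPM after CpG, against 85.7 and 31.9 CPM without immunization (log2 fold change 3.35 ± 0.37, adjusted p = 1.3e-05). Ccr7, the receptor that leads DC and naive T cells into lymph nodes, had 1010 and 849 CPM after CpG, against 314 and 255 CPM (1.70 ± 0.21, adjusted p = 5.1e-05). Cd83, a maturation marker, had 134 and 147 CPM after CpG, against 48.0 and 31.9 CPM (1.81 ± 0.26, adjusted p = 0.0002). Il15, a survival cytokine of memory T and natural killer cells, had 122 and 64.4 CPM after CpG, against 22.9 and 15.2 CPM (2.21 ± 0.35, adjusted p = 0.00046), and its presenting receptor Il15ra had 163 and 130 CPM after CpG, against 36.9 and 26.3 CPM (2.18 ± 0.31, adjusted p = 0.00016). The calcium channel subunit Cacnb3 rose by 3.05 ± 0.35 and the tetraspanin Cd63 by 2.93 ± 0.46. Of the genes named here, all but Cd83 were higher in CpG 24 h replicate 1 than in replicate 2.

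Of 15 chemokines tested 8 rose and 1 fell. With each library left out in turn, 3, 10, 4 and 2 were called higher. Cxcl10, which draws Cxcr3-bearing T cells, had 1373 and 1168 CPM after CpG, against 183 and 143 CPM without immunization (log2 fold change 2.96 ± 0.26, adjusted p = 1.5e-06). Its relative Cxcl9 had 77.0 and 31.4 CPM after CpG, against 24.4 and 14.4 CPM, and was not called (1.34 ± 0.50, adjusted p = 0.1). Cxcl16 had 336 and 205 CPM after CpG, against 62.8 and 27.1 CPM (2.55 ± 0.34, adjusted p = 0.0001). Ccl3, a ligand of Ccr1, had 240 and 38.3 CPM after CpG, against 22.9 and 16.8 CPM, a value set mostly by replicate 1. Its log2 fold change was 2.67 ± 0.60 (adjusted p = 0.0078) and 0.93 (adjusted p = 0.13) without that library. Xcl1, which attracts Xcr1-bearing DC and is made by T and natural killer cells, fell to 0 and 6.13 CPM after CpG, against 57.6 and 33.5 CPM (-3.44 ± 0.87, adjusted p = 0.015). Without non-immunized replicate 1, Ccl3 (adjusted p = 0.054) and Xcl1 (0.13) were not called, nor was Ccl3 (0.1) without non-immunized replicate 2.

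The same split between the CpG libraries ran through other inflammatory genes. Il12b, the gene of an interleukin subunit, had 80.5 and 10.7 CPM after CpG, against 2.95 and 9.57 CPM without immunization. Its log2 fold change of 2.65 ± 0.78 (adjusted p = 0.035) was 0.78 (adjusted p = 0.56) without replicate 1. Il6 had 82.2 and 11.5 CPM after CpG, against 8.12 and 6.38 CPM, and 2.44 ± 0.68 (adjusted p = 0.027) became 0.64 (adjusted p = 0.55). Cxcr2, a neutrophil receptor, had 224 and 21.5 CPM after CpG against 15.5 and 16.8 CPM, and C3ar1, a complement receptor of myeloid cells, had 137 and 15.3 CPM after CpG against 7.39 and 10.4 CPM. In replicate 2 both were near the non-immunized level; without replicate 1 their log2 fold changes were 0.40 (adjusted p = 0.64) for Cxcr2 and 0.77 (adjusted p = 0.44) for C3ar1, against 2.76 ± 0.70 (adjusted p = 0.016) and 2.91 ± 0.75 (adjusted p = 0.017) with it. The basophil and mast cell genes moved in the same library: the protease gene Prss34 had 70.2 and 9.20 CPM after CpG against 0 and 3.19 CPM, Fcer1a, the IgE receptor chain, had 180 and 27.6 CPM after CpG against 12.6 and 10.4 CPM, and Cpa3 had 163 and 14.6 CPM after CpG against 11.1 and 11.2 CPM. Of 9 such markers tested 4 were called higher. The counts were 0, 5, 1 and 1 higher with each library left out in turn. What part these cells had in the chemokine and cytokine values was not tested. Leaving out non-immunized replicate 1 ended the calls of Il12b (adjusted p = 0.27), Il6 (0.13), Cxcr2 (0.12), C3ar1 (0.14), Prss34 (0.1) and Cpa3 (0.16). The calls of Il12b (0.081), Il6 (0.18), Cxcr2 (0.12), C3ar1 (0.1), Fcer1a (0.069) and Cpa3 (0.16) were lost without non-immunized replicate 2. Prss34 (0.062), Fcer1a (0.057) and Cpa3 (0.77) were not called without CpG 24 h replicate 1.

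Of 18 cytokines and soluble inhibitors tested 7 rose and 1 fell. Leaving out each library in turn gave 5, 7, 4 and 4 called higher. Il18bp, a soluble cytokine inhibitor, had 46.2 and 60.5 CPM after CpG, against 4.43 and 3.19 CPM without immunization (log2 fold change 3.79 ± 0.39, adjusted p = 5.8e-06). The death ligand Tnfsf10 had 85.6 and 85.1 CPM after CpG, against 34.0 and 23.1 CPM (1.57 ± 0.26, adjusted p = 0.00074). The spread between the CpG libraries was small beside the distance to the non-immunized ones. Csf1, the growth factor of macrophages, rose by 3.01 ± 0.35. Tgfb1 fell by 0.86 ± 0.20 on the log2 scale, and lost its call without CpG 24 h replicate 2 (-0.81, adjusted p = 0.062). Among 29 cytokine receptors 4 rose and 5 fell. The counts without each library in turn were 4, 4, 2 and 3 higher and 6, 3, 2 and 1 lower. Flt3, the receptor for the DC growth factor, rose, with 89.0 and 59.8 CPM after CpG against 23.6 and 16.0 CPM (1.85 ± 0.28, adjusted p = 0.00027). Csf1r, the receptor of Csf1, fell, with 68.5 and 25.3 CPM after CpG against 204 and 290 CPM (-2.54 ± 0.38, adjusted p = 0.00026). Not called without non-immunized replicate 2 was Tgfb1 (adjusted p = 0.13).

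Chemokine receptors went both ways, with 6 of 19 higher and 5 lower. Fits without each library in turn called 4, 5, 3 and 2 higher and 6, 5, 5 and 4 lower. Ccrl2, a chemerin-binding receptor, had 94.2 and 73.6 CPM after CpG, against 8.12 and 4.79 CPM without immunization (log2 fold change 3.63 ± 0.35, adjusted p = 2.9e-06). Cxcr5, the follicle-homing receptor of B cells, had 22.3 and 172 CPM after CpG, against 17.0 and 9.57 CPM, and was high in the library with the high B cell sum (2.97 ± 0.61, adjusted p = 0.0038, and 0.72, adjusted p = 0.51, without it). Cxcr3, the receptor of Cxcl10, fell to 8.56 and 3.83 CPM after CpG, against 43.6 and 52.6 CPM (-3.11 ± 0.45, adjusted p = 0.00016). Cx3cr1, the fractalkine receptor of monocytes, fell to 10.3 and 3.07 CPM after CpG, against 73.1 and 90.1 CPM (-3.87 ± 0.74, adjusted p = 0.0021). The monocyte receptor Ccr2 fell to 330 and 147 CPM after CpG, against 688 and 664 CPM (-1.54 ± 0.32, adjusted p = 0.0038). Without non-immunized replicate 2, Cxcr5 (adjusted p = 0.083) was not called.

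Of 19 markers of monocytes and macrophages 7 fell, against 3.05% of all genes tested, and 1 was higher. Lyz2, the lysozyme of myeloid cells, had 185 and 59.8 CPM after CpG, against 576 and 641 CPM without immunization (log2 fold change -2.40 ± 0.34, adjusted p = 0.00016); its copy Lyz1 is near-identical and was also called lower, and counts may be shared between them. Cd68, a lysosomal protein of macrophages, had 32.5 and 19.2 CPM after CpG, against 74.6 and 85.3 CPM (-1.73 ± 0.34, adjusted p = 0.0027). Adgre1, which encodes F4/80, had 5.14 and 6.90 CPM after CpG, against 29.5 and 32.7 CPM (-2.28 ± 0.46, adjusted p = 0.003). The list summed to 2522 and 1690 CPM after CpG, against 3125 and 3389 CPM without immunization. The exception was Ly6c1, with 361 and 476 CPM after CpG against 52.4 and 37.5 CPM (3.22 ± 0.28, adjusted p = 1.5e-06), a surface protein that interferon also induces and that has a close copy in Ly6c2.

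Receptors for uptake fell in 5 of 17 cases, with a median log2 fold change of -1.13. With each library left out in turn, 9, 4, 4 and 4 were called lower. Clec7a, the beta-glucan receptor dectin-1, had 13.7 and 5.36 CPM after CpG, against 60.6 and 34.3 CPM without immunization (-2.51 ± 0.47, adjusted p = 0.0018). Clec12a, a receptor for uric acid crystals, had 15.4 and 10.7 CPM after CpG, against 45.0 and 63.8 CPM (-2.12 ± 0.35, adjusted p = 0.00055). The scavenger receptor Msr1 fell by 2.18 ± 0.51 on the log2 scale. Clec9a, the dead cell receptor of type 1 DC, was not called (1.65 ± 0.82, adjusted p = 0.23). Monocytes express several of these receptors, and the summed monocyte markers given above were lower in the same libraries; their part in the result was not tested. The lysosome list had 5 members higher and 4 lower of 24. Leaving out each library in turn gave 4, 5, 3 and 3 higher and 6, 4, 4 and 4 lower. Lgmn, an endosomal protease of antigen processing, was higher, with 61.6 and 95.8 CPM after CpG against 28.1 and 29.5 CPM (1.49 ± 0.26, adjusted p = 0.0011). Leaving out non-immunized replicate 2 ended the call of Msr1 (adjusted p = 0.087).

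DC subset lists were mixed. In the type 1 list 4 of 14 members rose and 2 fell. The counts without each library in turn were 4, 3, 4 and 2 higher and 2, 0, 0 and 0 lower. Batf3, a factor that type 1 DC need and that other activated cells express, had 188 and 113 CPM after CpG, against 31.0 and 20.7 CPM without immunization (2.49 ± 0.37, adjusted p = 0.00024), while the integrin Itgae fell by 1.02 ± 0.26 on the log2 scale and lost its call without CpG 24 h replicate 2 (-0.71, adjusted p = 0.13). In the type 2 list 2 of 12 rose and 4 fell. Fits without each library in turn called 2, 1, 1 and 1 higher and 7, 2, 2 and 2 lower. Irf4, which drives type 2 DC and plasma cells, had 54.8 and 72.0 CPM after CpG, against 16.2 and 12.0 CPM (2.18 ± 0.38, adjusted p = 0.001). Sirpa and Klf4 fell, by 1.67 ± 0.41 and 1.79 ± 0.50, and both lost the call without replicate 2 (-1.01, adjusted p = 0.16, and -1.22, adjusted p = 0.19). Of 12 common DC markers 4 rose, namely Btla, Cd74, Flt3 and Kmo. Without CpG 24 h replicate 2, the log2 fold changes of Btla, Cd74 and Flt3 were 0.31, 0.82 and 2.15. Of 12 plasmacytoid DC markers 5 rose and 1 fell. Those that rose included Bst2, also listed as an antiviral effector, and Ly6d and Spib, also listed as B cell markers. Of 6 Langerhans cell or migratory DC markers 4 rose, namely Ccr7, Fscn1, Ccl22 and Cd200. The maturation list also holds Ccr7, Fscn1 and Ccl22, and the coinhibitory list holds Cd200. Of the common DC markers, 6, 3, 2 and 1 were called higher with each library left out in turn. The calls of Itgae (adjusted p = 0.054), Sirpa (0.081) and Klf4 (0.15) were lost without non-immunized replicate 1. Itgae (0.14), Sirpa (0.081) and Klf4 (0.09) were not called without non-immunized replicate 2.

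B cell markers rose in 18 of 23 cases, and Blk was the 1 that fell. Without each library in turn the number higher was 23, 7, 13 and 10. Ms4a1, which encodes CD20, had 78.7 and 384 CPM after CpG, against 19.2 and 17.5 CPM without immunization (log2 fold change 3.71 ± 0.62, adjusted p = 0.00071). Both CpG libraries were above both non-immunized ones, and the call held without replicate 2 (2.09, adjusted p = 0.009). Cd79a, a chain of the B cell receptor, had 8.56 and 23.8 CPM after CpG, against 1.48 and 3.19 CPM (2.87 ± 0.69, adjusted p = 0.011), and was not called without that library (1.83, adjusted p = 0.33). Cr2, the complement receptor CD21, had 13.7 and 156 CPM after CpG, against 6.65 and 1.60 CPM (4.41 ± 0.79, adjusted p = 0.0012, and 1.67, adjusted p = 0.32, without it). Cd22, an inhibitory receptor of B cells, had 17.1 and 350 CPM after CpG, against 12.6 and 6.38 CPM. Its log2 fold change was 4.35 ± 0.88 (adjusted p = 0.0034), and 0.83 (adjusted p = 0.61) without replicate 2. Blk, a kinase of B cells, had 115 and 179 CPM after CpG, against 247 and 248 CPM (-0.72 ± 0.22, adjusted p = 0.049). Of 9 plasma cell and germinal centre markers 2 rose and 2 fell. The counts without each library in turn were 2, 2, 2 and 2 higher and 2, 0, 0 and 0 lower. Not called without CpG 24 h replicate 1 was Blk (adjusted p = 0.22). Without non-immunized replicate 1, Blk (0.19) and Cd79a (0.14) were not called. Leaving out non-immunized replicate 2 ended the calls of Blk (0.21), Cd79a (0.059) and Cd22 (0.079).

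Among 27 T cell markers 6 fell and 2 rose, namely Cd4 and Ccr7, which is also on the maturation list. Fits without each library in turn called 2, 1, 1 and 1 higher and 6, 7, 1 and 1 lower. At plain library totals 12 were called lower. Thy1 had 673 and 491 CPM after CpG, against 1504 and 1512 CPM without immunization (-1.38 ± 0.26, adjusted p = 0.002), and Cd3e, a chain of the T cell receptor complex, had 127 and 142 CPM after CpG, against 242 and 225 CPM (-0.79 ± 0.21, adjusted p = 0.019). The member Cd4 was high in replicate 2, with 13.7 and 135 CPM after CpG against 24.4 and 11.2 CPM (2.18 ± 0.61, adjusted p = 0.027), and stood at -0.39 (adjusted p = 0.8) without it. Natural killer and cytotoxic genes split, with 3 of 12 higher and 5 lower. Called higher were 2, 3, 3 and 2 and called lower 4, 3, 2 and 2 with each library left out in turn. Gzmb, which encodes granzyme B, had 46.2 and 51.3 CPM after CpG, against 2.22 and 0 CPM (5.27 ± 0.81, adjusted p = 0.00025). Gzma had 286 and 101 CPM after CpG, against 32.5 and 11.2 CPM (3.06 ± 0.48, adjusted p = 0.00037). The natural killer receptor Klrd1 fell to 29.1 and 29.1 CPM after CpG, against 140 and 112 CPM (-2.11 ± 0.30, adjusted p = 0.00016). Of 14 neutrophil markers 1 rose and 2 fell. Leaving out each library in turn gave 0, 5, 0 and 0 higher and 4, 0, 1 and 0 lower. The calls of Cd3e (adjusted p = 0.14) and Cd4 (0.076) were lost without non-immunized replicate 1. Cd3e (0.092) and Cd4 (0.27) were not called without non-immunized replicate 2.

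Among stress and growth genes, the heat shock list had 8 of 14 members higher, with a median log2 fold change of 0.96. In turn, the fits without 1 library called 9, 4, 4 and 4 higher. The chaperone Hsph1 had 134 and 278 CPM after CpG, against 53.9 and 60.6 CPM without immunization (1.88 ± 0.29, adjusted p = 0.00034), and Hsp90aa1 had 101 and 120 CPM after CpG, against 36.9 and 47.9 CPM (1.40 ± 0.24, adjusted p = 0.00086). Of 32 genes of cell death and survival 12 rose. They included Daxx, with 433 and 602 CPM after CpG against 96.7 and 91.7 CPM (2.46 ± 0.22, adjusted p = 1.8e-06), the death receptor Fas (1.89 ± 0.32) and the cell cycle inhibitor Cdkn1a (1.54 ± 0.25). Of 23 immediate early genes 4 rose and 2 fell. Fits without each library in turn called 3, 3, 1 and 1 higher and 2, 0, 0 and 0 lower. Jun, a subunit of AP-1, rose, with 137 and 91.2 CPM after CpG against 16.2 and 9.57 CPM (3.08 ± 0.32, adjusted p = 7.4e-06). Of 21 cell cycle genes 6 rose, and of 16 genes of the unfolded protein response 3 rose. Of the cell cycle genes, 6, 1, 1 and 1 were called higher with each library left out in turn. Of the genes of the unfolded protein response, 3, 0, 1 and 0 were called higher with each library left out in turn.

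Glycolysis, lipid and cytoskeleton lists had shares called higher close to the 7.96% over all genes tested, so their counts are near background. Of 32 genes of oxidative phosphorylation 0 were called by edgeR or by DESeq2 and 1 was lower at an unadjusted p under 0.05, with log2 fold changes between -0.56 and 0.38, and of 17 glycolysis genes 2 rose. The counts were 2, 2, 1 and 1 higher with each library left out in turn. Those called were Pfkfb3, which raises glycolytic flux, with 443 and 290 CPM after CpG against 67.9 and 47.1 CPM without immunization (2.65 ± 0.24, adjusted p = 1.9e-06), and Hif1a (0.95 ± 0.23, adjusted p = 0.014, and 0.77, adjusted p = 0.15, without replicate 2). Of 11 genes of tryptophan, itaconate and nitric oxide metabolism 5 rose. Leaving out each library in turn gave 4, 4, 3 and 3 called higher. They included the amino acid oxidase Il4i1, with 496 and 292 CPM after CpG against 129 and 52.6 CPM (2.09 ± 0.35, adjusted p = 0.00069), and the itaconate enzyme Irg1, with 49.6 and 15.3 CPM after CpG against 4.43 and 6.38 CPM (2.37 ± 0.66, adjusted p = 0.027, and 1.48, adjusted p = 0.15, without replicate 1). Of 22 cholesterol and lipid genes 2 rose. In turn, the fits without 1 library called 2, 2, 3 and 1 higher. Scd1, a fatty acid desaturase, was 1 of them, with 6.85 and 101 CPM after CpG against 2.95 and 1.60 CPM, and was not called without replicate 2 (1.52, adjusted p = 0.46). Of 31 cytoskeleton and adhesion genes 3 rose. Without each library in turn the number higher was 2, 6, 2 and 2. Not called without non-immunized replicate 1 were Hif1a (adjusted p = 0.13) and Irg1 (0.18). Without non-immunized replicate 2, Hif1a (0.1) and Irg1 (0.12) were not called.

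By size alone, the 10 largest rises among called genes whose higher group averaged 10 CPM or more and whose libraries did not overlap (true of 51% of all genes tested) were those of Kdr, Gzmb, Ifi44, Ube2c, Zdhhc14, Scd1, Esam, Bcl2l14, Cacna1s and Cr2, with log2 fold changes between 4.41 and 5.37. Kdr, a receptor for vascular endothelial growth factor, had 27.4 and 16.9 CPM after CpG, against 0.739 and 0 CPM without immunization (5.37 ± 1.10, adjusted p = 0.0021). Bcl2l14, of the Bcl2 family, had 80.5 and 52.9 CPM after CpG, against 3.69 and 1.60 CPM (4.52 ± 0.51, adjusted p = 1.2e-05). The 10 largest falls were those of Ptpro, Cx3cr1, Ear2, Cd177, Xcl1, Lyz1, Hpgd, Psd2, Apoc2 and P2ry6, between -3.30 and -4.44. Ptpro, a receptor tyrosine phosphatase, had 0 and 2.30 CPM after CpG, against 39.9 and 33.5 CPM (-4.44 ± 0.56, adjusted p = 3.8e-05). Ear2 and Apoc2 share sequence with neighbouring copies or transcripts, so their counts are uncertain. Leaving out CpG 24 h replicate 2 ended the calls of Ube2c (adjusted p = 0.08), Zdhhc14 (0.11), Scd1 (0.46), Cr2 (0.32), Cd177 (0.17), Hpgd (0.21), Psd2 (0.22) and P2ry6 (0.093). The calls of Ube2c (0.082), Zdhhc14 (0.056), Esam (0.056), Hpgd (0.073) and P2ry6 (0.12) were lost without non-immunized replicate 2. Esam (0.079) and P2ry6 (0.096) were not called without CpG 24 h replicate 1. Not called without non-immunized replicate 1 were Esam (0.13), Cd177 (0.058), Xcl1 (0.13), Hpgd (0.2) and P2ry6 (0.22).

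The libraries taken 12 h after the same particles were set against those at 24 h, and that comparison uses no non-immunized library. At 24 h, 317 genes (3.36% of those tested) were higher than at 12 h and 402 (4.26%) lower, with a median log2 difference of 0.0243 over all genes. With CpG 24 h replicates 1 and 2 and CpG 12 h replicates 1 and 2 left out in turn, 461, 233, 134 and 79 genes were higher and 687, 201, 288 and 195 lower. Of the GTPases 12 of 18 were higher at 24 h, of the PARP and TRIM proteins 13 of 20, and of the antiviral effectors 10 of 45, while 3 effectors were lower. In the same order of libraries left out, 14, 12, 10 and 4 GTPases, 14, 5, 6 and 1 PARP and TRIM proteins and 14, 7, 7 and 3 effectors were higher, while 5, 3, 3 and 2 effectors were lower. Ifi44 had 426 and 247 CPM at 24 h, against 85.5 and 84.1 CPM at 12 h (adjusted p = 0.00036), and Iigp1 had 1042 and 795 CPM at 24 h, against 241 and 285 CPM at 12 h (adjusted p = 8.1e-05). Mx1 was not called between the times, at 443 and 512 CPM at 24 h against 496 and 414 CPM at 12 h (log2 difference 0.07 ± 0.21). Of the heat shock genes 4 of 14 and of the T cell markers 11 of 27 were higher at 24 h (7, 1, 3 and 0 and 12, 8, 13 and 6 in the same order); the kinase Lck had 437 and 464 CPM at 24 h, against 190 and 193 CPM at 12 h (adjusted p = 0.0013).

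Of 15 chemokines 6 were lower at 24 h, and the other 9 did not pass the test. With CpG 24 h replicates 1 and 2 and CpG 12 h replicates 1 and 2 left out in turn, 11, 5, 4 and 6 were lower and 0, 3, 0 and 0 higher. Cxcl10 had 1373 and 1168 CPM at 24 h, against 2959 and 2892 CPM at 12 h (adjusted p = 0.0047), and both times stood above the non-immunized libraries. Cxcl9 had 77.0 and 31.4 CPM at 24 h, against 243 and 383 CPM at 12 h (adjusted p = 0.00082). Ccl2, the ligand of Ccr2, had 5.14 and 1.53 CPM at 24 h, against 51.6 and 59.2 CPM at 12 h (adjusted p = 0.00026). Ccl5 and Cxcl16 were not called between the times, with log2 differences of -0.04 ± 0.26 and -0.31 ± 0.31, nor was Ccl3 (0.54 ± 0.54), which was lower without CpG 24 h replicate 1 and higher without replicate 2. Of the maturation list 4 of 37 members were lower at 24 h (17, 1, 1 and 2 with CpG 24 h replicates 1 and 2 and CpG 12 h replicates 1 and 2 left out in turn), and Ccr7, Cd86 and Fscn1 were not called between the times, with log2 differences of 0.10 ± 0.21, 0.04 ± 0.33 and -0.77 ± 0.33. Neutrophil markers were lower at 24 h in 12 of 14 cases and monocyte and macrophage markers in 16 of 19, and in the same order 14, 10, 11 and 10 and 16, 9, 12 and 10 were. Camp, a neutrophil granule peptide, had 3.42 and 0 CPM at 24 h, against 797 and 1095 CPM at 12 h (adjusted p = 2.3e-06). Neutrophil markers summed to 1193 and 181 CPM at 24 h, against 16202 and 20738 CPM at 12 h. Of the uptake receptors 11 of 17 and of the lysosome list 13 of 24 were lower at 24 h (13, 9, 11 and 8 and 14, 8, 10 and 7 in the same order), beside those sums, and the part of these cells in the result was not tested.

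**Figure D5:**
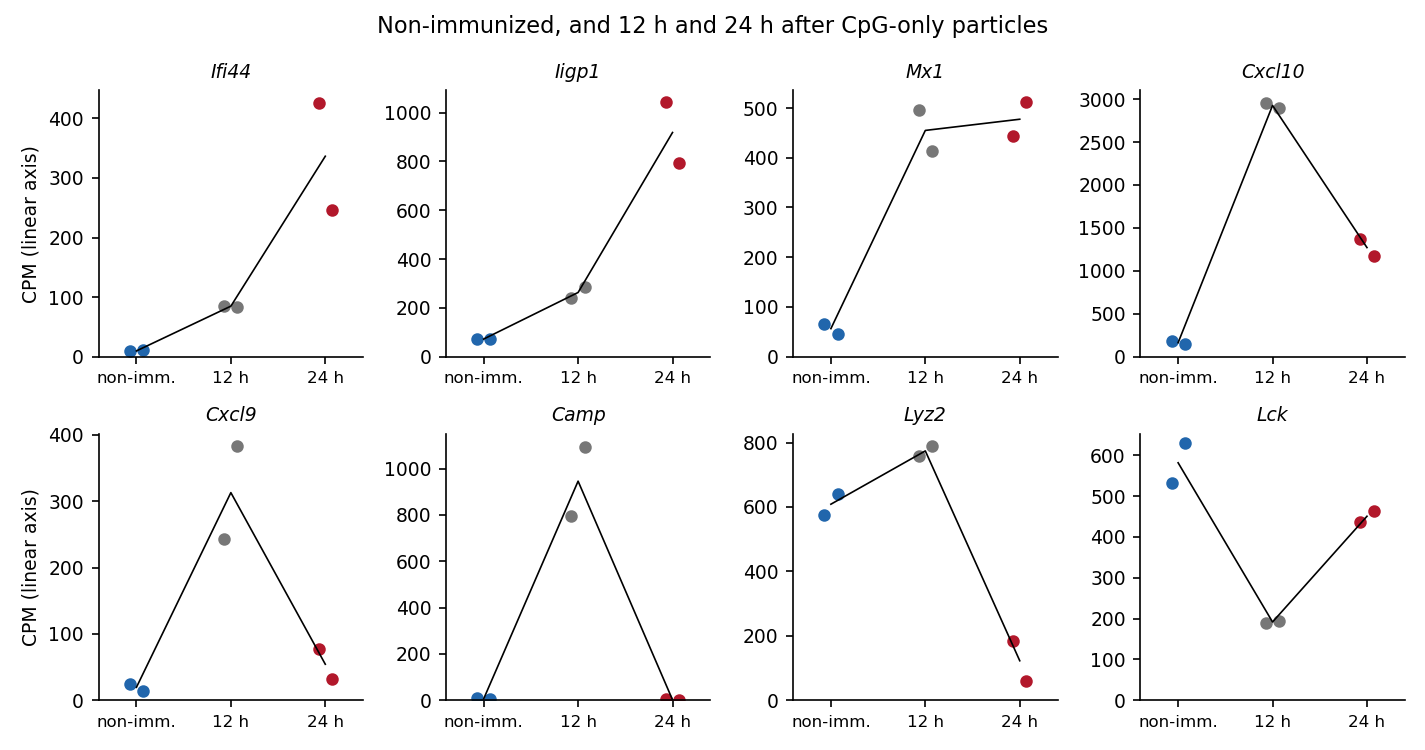
CPM on linear axes of 8 genes in the non-immunized libraries and 12 h and 24 h after CpG-only particles; points are the 2 libraries of each group and lines join group means. Ifi44 and Iigp1 are highest at 24 h, Cxcl10, Cxcl9 and Camp are highest at 12 h, Mx1 was not called between 12 h and 24 h, and Lck is lowest at 12 h.

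Particles with ovalbumin and CpG were sampled at 24 h as well. Because both comparisons use the same non-immunized libraries, their values are only set side by side. The log2 fold change over non-immunized was 5.09 after CpG alone and 4.87 after ovalbumin with CpG for Ifi44, 3.67 and 3.29 for Iigp1, 2.27 and 2.38 for Cd274, and 3.71 and 2.37 for Ms4a1. For the maturation genes it was 3.35 and 4.51 for Fscn1 and 1.70 and 2.52 for Ccr7, and for the costimulatory ligand Cd80 it was 0.74 and 2.42.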

How the data were processed

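Bulk libraries were made from polyA RNA of sorted lymph node cells, captured on oligo(dT) beads, with indexed cDNA pooled and amplified by in-vitro transcription, per the labels' protocols. How reads of 1 molecule were treated is not given in the sources used here. The submitters' processing notes name bcl2fastq, HISAT 0.1.6, HOMER and build mm9, with no role or order. The deposited values are whole-number counts per gene, taken as raw counts, in 24421 genes. The authors' deposited table of comparisons, used only where named, holds log2 fold changes and adjusted p-values in columns named as DESeq2 names them, per the file headers.

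Counts of the 10 libraries of the time course (5 groups of 2) entered 1 fit in edgeR 4.0.16 (R 4.3.3), with trimmed-mean scaling, the default filter on low counts (9428 genes kept), the quasi-likelihood test and Benjamini-Hochberg adjustment; calls have an adjusted p under 0.05. Errors of fold changes are approximate standard errors, the unshrunken log2 fold change divided by the square root of that test's F statistic. The fold changes printed beside them are edgeR's, which are shrunken toward 0. The p-values measure spread between libraries that the labels do not tie to separate animals. On data simulated with the same spread in every group (9154 genes), 40% of 2-fold and 88% of 4-fold changes were recovered. The changed genes averaged over 10 counts. Since the real CpG 24 h replicates varied more than those of other groups, recovery in the real comparison is not known. Depth was 612017 to 1329203 counts; a limit of 3 counts covers counting error only. Alternatives were other size factors, DESeq2 1.42.0, other filters, only the libraries compared, the replicate number as a block, other cells' markers left out, each library left out and plain totals. With 1 library left in a group, it is assumed to vary like the others, although the CpG 24 h pair varied more.

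Members and the 45 gene lists were chosen with earlier results of these data known. Named genes are 25 followed genes, the 10 largest rises and falls, up to 4 called members of each list, and the 6 largest differences from 12 h; some of these are not reported here. Other genes, such as Isg15, Irf9, Pdcd1lg2, Tnfsf14 or Il6, were named after their values were seen. Promoters are RefSeq's (GRCm38.p6), matched by symbol; the counts' own build was not used for coordinates.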

Additional observations from a re-analysis of the deposited data

Results flagged for a closer look

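The results in this paragraph drew attention because the effect at 24 h differed from that at 12 h after the same CpG-only particles, by edgeR's test of the difference between the times itself. Each value is a log2 difference of 24 h over 12 h, from 2 libraries at each time. In all, 317 genes were higher and 402 lower at 24 h. Among interferon effectors and GTPases the difference was 1.96 for Ifi44, 1.32 for Oas2, 1.80 for Iigp1, 1.49 for Gbp11 and 0.90 for Gbp2. It was 1.63 for Dtx3l, 0.87 for Parp14, 1.01 for Pml and 0.76 for Nlrc5, the class I transactivator. The chaperones Hsph1 and Hsp90aa1 differed by 1.69 and 1.01. The T cell kinase Lck differed by 1.24, the surface protein Ly6c1 by 2.48 and the B cell receptor partner Cr2 by 5.04, with Cr2 at 13.7 and 156 CPM at 24 h, against 2.34 and 3.12 CPM at 12 h. Without CpG 24 h replicate 2 the calls of Pml (edgeR's adjusted p = 0.18), Nlrc5 (0.08), Hsp90aa1 (0.14) and Cr2 (0.28) were lost. Without CpG 12 h replicate 1 those of Gbp2 (0.066), Pml (0.057), Nlrc5 (0.093), Hsp90aa1 (0.095) and Cr2 (0.063) were. CpG 12 h replicate 2, left out, ended those of Oas2 (0.054), Gbp11 (0.085), Gbp2 (0.14), Parp14 (0.092), Pml (0.14), Nlrc5 (0.15), Hsph1 (0.056) and Hsp90aa1 (0.15).

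Values lower at 24 h were those of the chemokines Cxcl10 (-1.21), Cxcl9 (-2.65), Cxcl11 (-4.59), Ccl2 (-4.29) and Ccl22 (-1.77). Neutrophil granule genes were lower by the widest margins, with -9.61 for Camp, -7.51 for Ngp, -7.48 for Ltf and -4.94 for S100a8. Among genes of monocytes and of uptake, the difference was -2.75 for Lyz2, -2.45 for Csf1r, -3.28 for Cx3cr1, -2.82 for Clec7a and -2.65 for Clec12a. It was -4.61 for Ifitm6, -1.42 for Ifitm3, -1.49 for the cell cycle inhibitor Cdkn1a and -2.34 for the type 1 DC receptor Xcr1. Calls lost with 1 library left out were those of Cx3cr1 and Xcr1 without CpG 24 h replicate 2 (0.12 and 0.3) and without CpG 12 h replicate 2 (0.39 and 0.41), and of Ccl22 without CpG 12 h replicate 1 (0.061). Neutrophil markers summed to 1193 and 181 CPM at 24 h, against 16202 and 20738 CPM at 12 h, and the part of such cells in the other differences was not tested.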

How the results depend on the processing

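For CpG 24 h against non-immunized, DESeq2 called 128 genes lower, the test with no filter on low counts 441, the fit of only the 4 libraries compared 186, and plain library totals, chosen after seeing the data, 574, against 288 as reported. For 24 h against 12 h, DESeq2 called 182 higher and 259 lower, and the fit of only those 4 libraries 86 higher and 156 lower, against 317 and 402. The smaller fits had fewer samples behind the spread; otherwise the cause was not tested. With 1 library left out, the genes called against non-immunized ran from 365 to 730 higher and from 81 to 404 lower, and those called against 12 h from 79 to 461 higher and from 195 to 687 lower. Without CpG 24 h replicate 2, Cd4 stood at -0.387 and H2-Ob at -0.143 (2.888 and 2.235 without replicate 1). Against 12 h and without CpG 24 h replicate 1, C3ar1 stood at -1.435, Ccl3 at -1.216, Cpa3 at -1.774 and Cxcr2 at -1.934 (1.718, 1.427, 1.698 and 1.448 without replicate 2). Over all alternatives, values of single genes recomputed in this way kept their call or stayed uncalled in 1960 cases against non-immunized. With direction kept, the call was lost in 189 and gained in 15. Against 12 h these numbers were 1959, 111 and 91. Values that stayed uncalled were counted whether or not their direction changed. Replicates share only a number in the labels: deviations of same-numbered libraries correlated between -0.045 and 0.148. A fit with the replicate number as a block called 769 higher and 294 lower against non-immunized, and 324 and 418 against 12 h. In CpG 24 h replicate 1, with 612017 counts, a count of 0 allows a level of up to 5.08 CPM of that full total, from 3 counts.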

Other observations

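The complement list is not described above, apart from single members such as C3ar1 and Cr2. Both of these rose, each with most of its level in 1 CpG library. The log2 fold change was 0.77 for C3ar1 without CpG 24 h replicate 1 and 1.67 for Cr2 without replicate 2. Of 11 complement genes tested, these 2 rose and 2 fell. Without CpG 24 h replicates 1 and 2 and non-immunized replicates 1 and 2 in turn, 1, 1, 1 and 1 were called higher and 2, 2, 1 and 1 lower. C3, the central complement protein, had 29.1 and 6.90 CPM after CpG, against 73.1 and 86.9 CPM without immunization, a log2 fold change of -2.44 ± 0.41 (edgeR's adjusted p = 0.00069). Its call held with each of the 4 libraries left out, with log2 fold changes between -3.52 and -1.46. Itgb2, the beta chain of complement receptors and of LFA-1, had 226 and 251 CPM after CpG, against 400 and 413 CPM (-0.76 ± 0.21, adjusted p = 0.026), and passed only without CpG 24 h replicate 2 among the fits that leave out 1 library (adjusted p = 0.037). Bst2, which encodes tetherin, a protein that holds virus particles on the cell surface, had 1185 and 1352 CPM after CpG, against 233 and 147 CPM (2.74 ± 0.25, adjusted p = 2.1e-06). Nampt, an enzyme of NAD synthesis, had 255 and 263 CPM after CpG, against 57.6 and 39.9 CPM (2.40 ± 0.22, adjusted p = 1.7e-06).

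Csf2rb, the shared signalling chain of several myeloid cytokine receptors, had 1291 and 296 CPM after CpG, against 173 and 187 CPM without immunization. Its log2 fold change was 2.12 ± 0.43 (adjusted p = 0.0033), 0.70 (adjusted p = 0.029) without CpG 24 h replicate 1 and 2.84 without replicate 2. Replicate 1 was also the library with the high sum of basophil and mast cell markers, whose part in this value was not tested. Without non-immunized replicate 1 the call was lost (adjusted p = 0.052). Of 17 stromal markers 1 was tested and of 10 red cell and platelet markers 1 was tested, and neither of these was called. Without CpG 24 h replicate 2, 5 red cell and platelet markers were tested and 3 called higher. The stromal markers summed to 108 and 128 CPM after CpG, against 77.5 and 79.8 CPM without immunization, and those of red cells and platelets to 178 and 21.5 CPM after CpG, against 27.3 and 20.7 CPM.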
